A study of Oryzias latipes with 2 samples.

Results

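The gene *fshb* (ENSORLG00000029237) encodes the beta subunit of follicle-stimulating hormone (Fsh), and it is described here across all annotated cell types of the medaka pituitary, as 1 of 18377 genes in the female library and 1 of 18660 genes in the male library. It was chosen by its identifier and not by its values. The data are droplet-based single-cell RNA sequencing (scRNA-seq) of cells from the pituitaries of medaka (*Oryzias latipes*), genotype d-rR lhb:GFP and about 8 months old, with 1 library from a pool of 24 females and 1 from a pool of 23 males, in which single fish cannot be told apart. All fish of both groups carry GFP driven by the *lhb* promoter, and none received a treatment that the labels name. Each cell carries a cell type that the authors deposited, and *fshb* is the gene after which one of these types is named.

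Fsh is a heterodimer of its own beta subunit and an alpha subunit, encoded by *cga*, which it shares with luteinizing hormone (Lh, beta subunit *lhb*) and thyroid-stimulating hormone (beta subunit *tshba*). It is released by gonadotropes into the blood and acts on the gonads, where it supports the growth of follicles and spermatogenesis. In teleosts Fsh and Lh are for the most part made by different gonadotropes, whereas in mammals many gonadotropes make both.

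Molecules were counted as unique molecular identifiers (UMIs), each of which marks 1 captured transcript. The female library held 2592 cells and 11750195 UMIs (median 3757.5 per cell), and the male library 3804 cells and 17691130 UMIs (median 3421.5 per cell), with 16 cell barcodes present in both. The level of *fshb* is given as UMIs per 10000 UMIs, for a single cell or summed over all cells of a type (the pooled level), with an exact Poisson 95% interval for sums and an exact binomial 95% interval for shares. These intervals cover counting error only. As each sex is 1 library, there are no replicates and no test between the sexes, and differences between the sexes cannot be told apart from differences between the libraries.

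*fshb* had 103048 UMIs in the female library and 105976 in the male library, which placed it as number 8 and number 12 among all genes by UMI count. This corresponded to 87.7 per 10000 in females (interval 87.2 to 88.2) and 59.9 in males (59.5 to 60.3), a female over male ratio of 1.46 (1.45 to 1.48). At least 1 *fshb* UMI was found in 81.0% of the female cells (2100 cells) and in 71.1% of the male cells (2706 cells). The molecules were nevertheless concentrated in few cells. The 31 female cells with the most *fshb* UMIs (1.20% of the cells) held 50% of them, as did the 52 such male cells (1.37%), and 90% were held by 162 female cells (6.25%) and 239 male cells (6.28%).

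Fsh gonadotropes had by far the highest level in both libraries. The 72 female Fsh gonadotropes had a pooled level of 1326 UMIs per 10000 (1316 to 1336), and the 198 male Fsh gonadotropes one of 810.2 (804.9 to 815.5). In single cells *fshb* reached 23.5% of all UMIs in the female and 22.4% in the male library. Per cell, the level ran in females from 0 over a median of 1276 to 2347, with quartiles of 849 and 1641, and in males from 147.9 over a median of 689 to 2240.4, with quartiles of 326 and 1105. The upper ends of the libraries were close to each other, while the lower quartile of the male cells lay far below that of the female cells. The coefficient of variation of the level over cells was 47.9% in females and 63.8% in males.

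**Figure D1:**
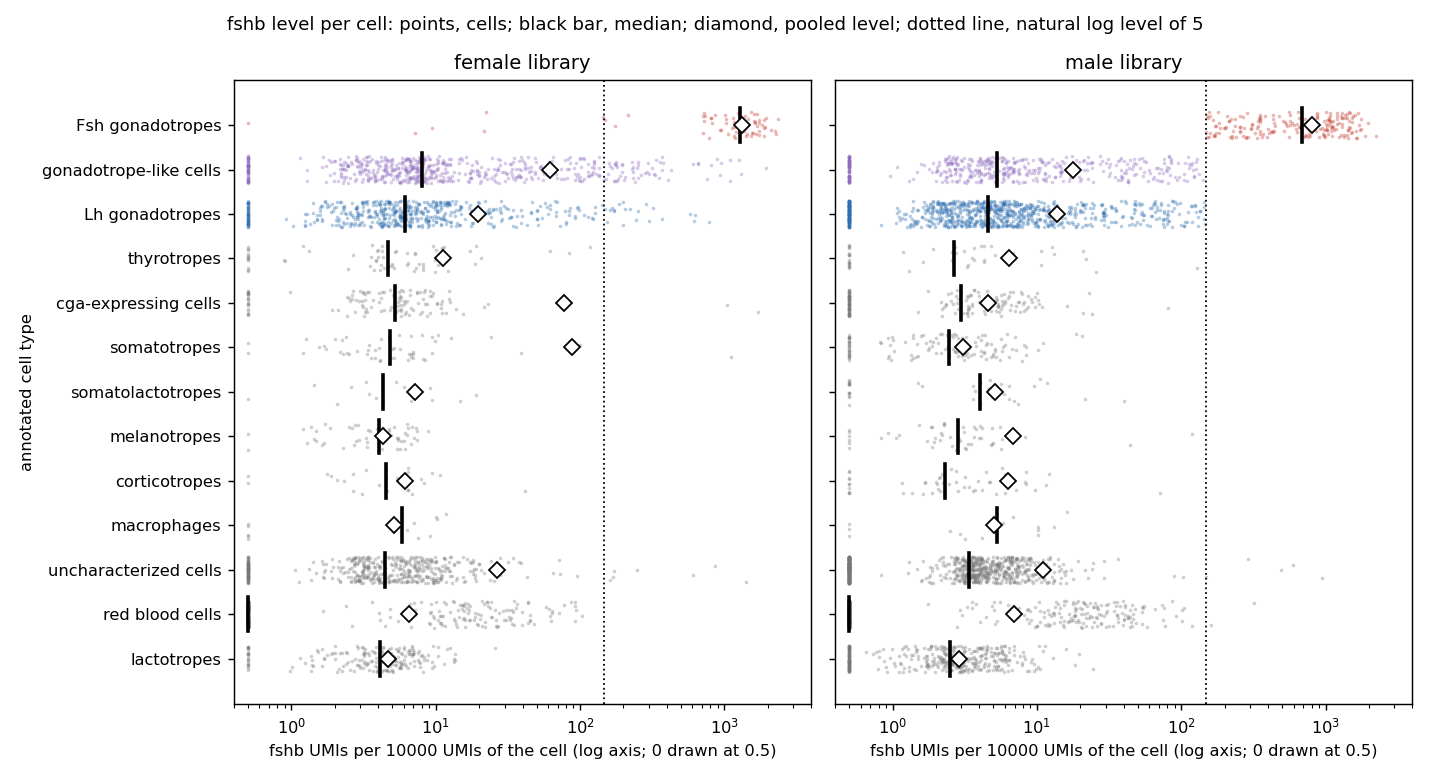
Level of *fshb* in every cell, by annotated type, in the female (left) and male (right) library on a log axis in UMIs per 10000 UMIs of the cell. Each point is a cell, with the black bar at the median over cells and the diamond at the pooled level. The medians of Fsh gonadotropes, 1276 in females and 689 in males, lie far to the right of those of all other types, while single cells overlap. Where a diamond lies far to the right of its bar, as in female somatotropes (87.8 against 4.84), few cells hold most UMIs.

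The other annotated gonadotropes had far lower levels. Gonadotrope-like cells had a pooled level of 62.2 in females (61.3 to 63.2, 597 cells) and 17.9 in males (17.3 to 18.5, 444 cells). Lh gonadotropes, named after *lhb*, had 19.8 in females (19.3 to 20.3, 535 cells) and 13.7 in males (13.4 to 14.05, 895 cells). In both types these sums were set by a minority of cells, as the medians per cell were only 7.99 in female and 5.27 in male gonadotrope-like cells, and 6.11 in female and 4.60 in male Lh gonadotropes. The highest gonadotrope-like cell had a level of 1931 in females and 141 in males, and the highest Lh gonadotrope 786 in females and 145.8 in males.

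Lactotropes, the prolactin cells, were taken as the type that should lack *fshb*. Their own marker *prl* was at 2475 UMIs per 10000 in females and 1945 in males. Even so, 89.1% of the female lactotropes (171 of 192, interval 83.8 to 93.1%) and 77.8% of the male lactotropes (309 of 397, 73.4 to 81.8%) had at least 1 *fshb* UMI, at a median depth of 6447 and 5763 UMIs per cell. Their pooled level was 4.64 in females (4.31 to 4.9997) and 2.90 in males (2.72 to 3.09), which is 5.30% and 4.84% of the level of the whole library. In droplet data, free RNA in the cell suspension enters droplets of all cells, and a share of cells with a UMI at or below that of lactotropes is therefore read as background. The highest lactotrope had a level of 26.0 in females and 24.5 in males.

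Against this background, the pooled level of Fsh gonadotropes was 285-fold that of lactotropes in females (265 to 308) and 280-fold in males (262 to 298). The folds were 13.4 in female (12.4 to 14.5) and 6.17 in male gonadotrope-like cells (5.74 to 6.64), and 4.26 in female (3.94 to 4.61) and 4.73 in male Lh gonadotropes (4.42 to 5.07). The share of cells above the highest lactotrope of the same library was 93.1% in female Fsh gonadotropes (67 of 72, 84.5 to 97.7%) and 100% in male Fsh gonadotropes (198 of 198, from 98.2%). It was 29.0% in female (173 cells, 25.4 to 32.8%) and 20.7% in male gonadotrope-like cells (92 cells, 17.0 to 24.8%), and 15.0% in female (80 cells, 12.04 to 18.3%) and 13.4% in male Lh gonadotropes (120 cells, 11.2 to 15.8%). Most cells of both types thus lay within the range of lactotropes. As *fshb* may have entered the annotation, the shares and folds of Fsh gonadotropes are a description.

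Presence of a UMI separated the types poorly. Every cell was thinned to 2200 UMIs, which equalizes the UMIs per cell but not the share of free RNA within a cell. The expected share of cells with a *fshb* UMI was then 98.5% in female Fsh gonadotropes, 79.8% in gonadotrope-like cells, 73.9% in Lh gonadotropes and 60.5% in lactotropes. The male shares were 100%, 69.6%, 65.2% and 44.9% in the same order. The cells left out because they were shallower numbered 1, 29, 51 and 10 in females and 9, 30, 72 and 20 in males. Unthinned, the shares were 98.6%, 90.8%, 90.7% and 89.1% in females and 100%, 83.6%, 84.0% and 77.8% in males. Lactotropes lay near the low end of the types outside the gonadotropes. Red blood cells aside, the thinned shares of those types ran from 60.3% (melanotropes) to 71.7% (somatolactotropes) in females. In males they ran from 44.6% (somatotropes) to 58.6% (macrophages).

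The remaining 9 types, red blood cells aside and lactotropes included, had medians per cell between 4.08 (melanotropes) and 5.82 (macrophages) in females and between 2.30 (corticotropes) and 5.25 (macrophages) in males. The macrophages were 15 cells in each library, and in males their median was above that of Lh gonadotropes (4.60). In female somatolactotropes, 15 cells that make somatolactin, the pooled level of 7.14 (5.59 to 8.996) was above that of lactotropes. It was 5.10 in the 38 male ones (4.02 to 6.37). Without the highest cell these levels were 5.68 in females and 4.45 in males. That female cell held 21 of the 72 *fshb* UMIs of its type, and the female median was 4.29 against 4.13 in lactotropes. Female macrophages (5.13, 2.99 to 8.22) were not separated from female lactotropes, at 1.11-fold their level (0.640 to 1.78). Female corticotropes, the cells of *pomca*-derived corticotropin (6.14, 4.94 to 7.53), were at 1.32-fold the level of female lactotropes (1.05 to 1.65). A single corticotrope held 30 of the 91 *fshb* UMIs of its type, and the level was 4.32 without it. Male somatotropes, the growth hormone cells (3.07, 2.74 to 3.43), were not separated from male lactotropes, at 1.06-fold (0.931 to 1.21). Other male types were above male lactotropes. The folds were 1.76 in somatolactotropes (1.38 to 2.22), 1.73 in macrophages (1.08 to 2.64) and 1.59 in cga-expressing cells (1.39 to 1.82). No male type had a pooled level below that of male lactotropes.

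Several pooled levels outside the gonadotropes rested on 1 or 2 cells, also those of female somatotropes and cga-expressing cells, which lay above that of female gonadotrope-like cells. Female somatotropes had a pooled level of 87.8, but a single cell held 3134 of their 3467 *fshb* UMIs, and without it the level was 9.08. That cell had 28134 UMIs, more than nearly all cells of its library (99.8th percentile), with 4337 *gh* and 2574 *cga* UMIs beside *fshb*, and 18 of its 20 nearest neighbours on the deposited map were thyrotropes. Female cga-expressing cells, a type named after the alpha subunit, stood at 77.8, and 2 of their 120 cells with 2341 and 1074 *fshb* UMIs held most of the 3651 UMIs. Their highest cell had more *cga* than *fshb* (2637 against 2341 UMIs), all 20 nearest neighbours were of its own type, and without it the pooled level was 28.7. Male cga-expressing cells had 4.62, with the highest cell at 80.9.

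The same was seen for male melanotropes and corticotropes. A male melanotrope with 228 *fshb* UMIs among 19265 brought the pooled level of the type to 6.83, and it was 4.58 without that cell, with a median of 2.82. A male corticotrope with 131 *fshb* UMIs among 18486 brought its type to 6.32, and it was 3.14 without that cell. Thyrotropes, the *tshba* cells, had 11.3 in females and 6.42 in males, and 9.15 and 3.95 without the highest cell. Whether these cells are 2 cells in 1 droplet was not tested. Per the study's methods, the cells with the highest doublet scores had been taken out before deposit. Their share was set from loading data, a step that need not take out all doublets.

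Uncharacterized cells had a pooled level of 26.5 in females (25.8 to 27.2, 475 cells), above that of female Lh gonadotropes, and of 11.1 in males (10.7 to 11.5, 817 cells), with 5.21% and 2.86% of the *fshb* UMIs. Without the highest cell these levels were 14.6 in females and 8.20 in males. Outside the gonadotrope types, 10 female and 7 male cells had a natural log level of at least 5, which is 147 UMIs per 10000, and they held 10.3% of the female and 1.81% of the male *fshb* UMIs. Most of them, 6 in females and 5 in males, belonged to cluster 13, which the authors left uncharacterized. These cells reached levels of 1422 in females and 943 in males, against cluster medians of 4.93 and 3.56. The highest of them also had much *cga*, with 1707 *cga* UMIs beside 2431 *fshb* UMIs in females, and 927 *cga* beside 796 *fshb* UMIs in males. Their *lhb* was low, with 13 and 11 UMIs. For 2 of the 5 male cells, 16 of 20 nearest neighbours on the map were Fsh gonadotropes, while the other high cells of the cluster, female and male, lay among uncharacterized cells.

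Red blood cells were a special case, as their low depth makes the levels of single cells coarse. Their pooled level was 6.50 in females (5.61 to 7.48, 371 cells) and 6.91 in males (6.11 to 7.79, 559 cells), and their median was 0 in both. The pooled level was 1.40-fold that of lactotropes in females (1.19 to 1.64) and 2.39-fold in males (2.08 to 2.73). What sets this excess was not tested. As the median depth was 518 UMIs in females and 503 in males, a single UMI gives a level near 20. Above a level of 50 lay 14 female and 19 male red blood cells, of which 13 and 17 had fewer than 10 *fshb* UMIs. The highest had 25 *fshb* UMIs among 788, in males.

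Of all *fshb* UMIs, Fsh gonadotropes held 65.4% in the female library (65.1 to 65.7%) and 84.9% in the male library (84.7 to 85.1%), with 4.33% and 6.28% of all UMIs. Gonadotrope-like cells held 15.4% in females (15.2 to 15.6%) and 3.02% in males (2.92 to 3.13%). The share of Lh gonadotropes was 5.42% in females (5.28 to 5.56%) and 6.36% in males (6.21 to 6.51%). Together these types held 86.2% of the female and 94.3% of the male *fshb* UMIs, and 50.1% and 44.2% of all UMIs. The lactotropes, with 12.97% of all female and 18.6% of all male UMIs, held 0.687% and 0.902%.

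**Figure D2:**
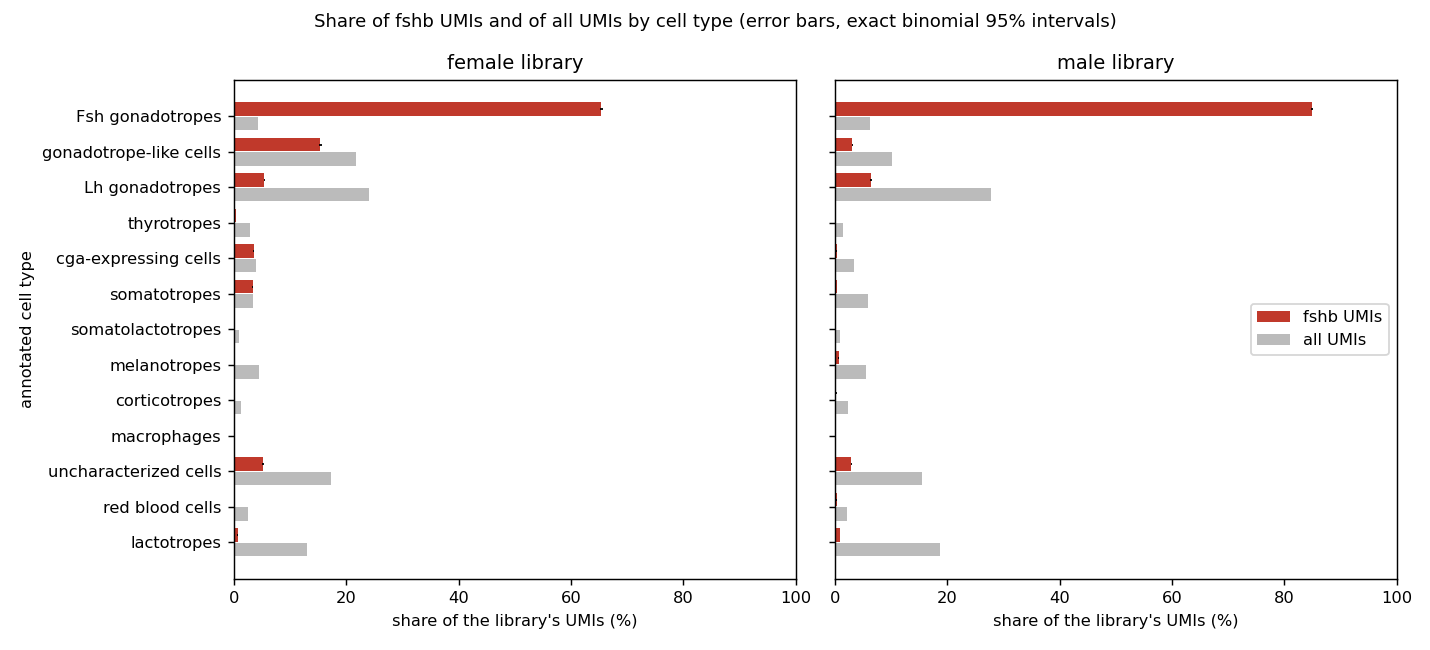
Share of the library's *fshb* UMIs (red, with exact binomial 95% intervals) and of all its UMIs (grey) held by each annotated type, in percent, in the female (left) and male (right) library. Fsh gonadotropes hold 65.4% of the female and 84.9% of the male *fshb* UMIs, and female gonadotrope-like cells hold 15.4%.

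A cut-off of 50 UMIs per 10000, a round value above the highest lactotrope of both libraries, was used to count cells of clear *fshb*. Above it were 274 female cells, with 93.1% of the *fshb* UMIs, and 353 male cells, with 92.5%. Of the female cells 24.5% were Fsh gonadotropes (67 cells, 19.5 to 30.0%), 43.4% were gonadotrope-like cells (119 cells, 37.5 to 49.5%) and 20.4% were Lh gonadotropes (56 cells, 15.8 to 25.7%). Of the male cells 56.1% were Fsh gonadotropes (198 cells, 50.7 to 61.3%), 15.3% were gonadotrope-like cells (54 cells, 11.7 to 19.5%) and 20.1% were Lh gonadotropes (71 cells, 16.1 to 24.7%). In number, cells of clear *fshb* were thus fewer inside than outside the female type named after it, at 67 Fsh gonadotropes against 175 gonadotrope-like and Lh cells. As shares of their types, they were 93.1% of the 72 Fsh gonadotropes, 19.9% of the 597 gonadotrope-like cells and 10.5% of the 535 Lh gonadotropes. The order by number depended on the cut-off, as at 200 there were 64 female Fsh gonadotropes against 41 gonadotrope-like and 12 Lh cells. At 25 the Fsh gonadotropes made up 16.8% of such cells in females and 40.1% in males, at 100 they were 35.1% and 79.8%, and at 200 they were 51.6% and 97.3%. The cells above 50 included 14 female and 19 male red blood cells, of which 13 and 17 had fewer than 10 *fshb* UMIs. With at least 10 *fshb* UMIs also required, 261 female and 336 male cells remained. Of these, 25.7% and 58.9% were Fsh gonadotropes.

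The border of the annotated Fsh gonadotropes differed between the libraries. In males the types did not overlap in *fshb*, as the lowest Fsh gonadotrope had 147.9, whereas the highest gonadotrope-like cell had 141 and the highest Lh gonadotrope 145.8. On the natural log scale of 1 plus the level, these were 5.004, 4.96 and 4.99, so that the value 5 divides them. In females no such border was seen. Of the 72 female Fsh gonadotropes, 5 had levels of 0, 7.14, 9.45, 21.6 and 22.3, within the range of female lactotropes, and the next had 144.5, 148.8, 175.4 and 213.7. The other 63 female cells had 711 or more. The lowest 5 cells had *cga* at 192 UMIs per 10000 (the 3 below 10) and 235 (the pair from 20 to 50) and the gonadotrope gene *nr5a1b* at 37.97 and 22.02, against 35.4 and 0.827 in female lactotropes. They were also unlike the female Fsh gonadotropes from 500, in which *cga* was at 1118 and *nr5a1b* at 14.6. GFP was at 208 in the 3 cells below 10 (median 182) and at 23.7 in the pair. In the cells from 500 it was at 109 (median 22.7). Conversely, 60 female gonadotrope-like cells and 21 female Lh gonadotropes lay at or above the natural log level of 5, which in males none did. The study's methods name an expression cut-off for each hormone gene and sex, by which expressing cells were told from background, but do not say whether the deposited cell types were set with it.

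**Figure D3:**
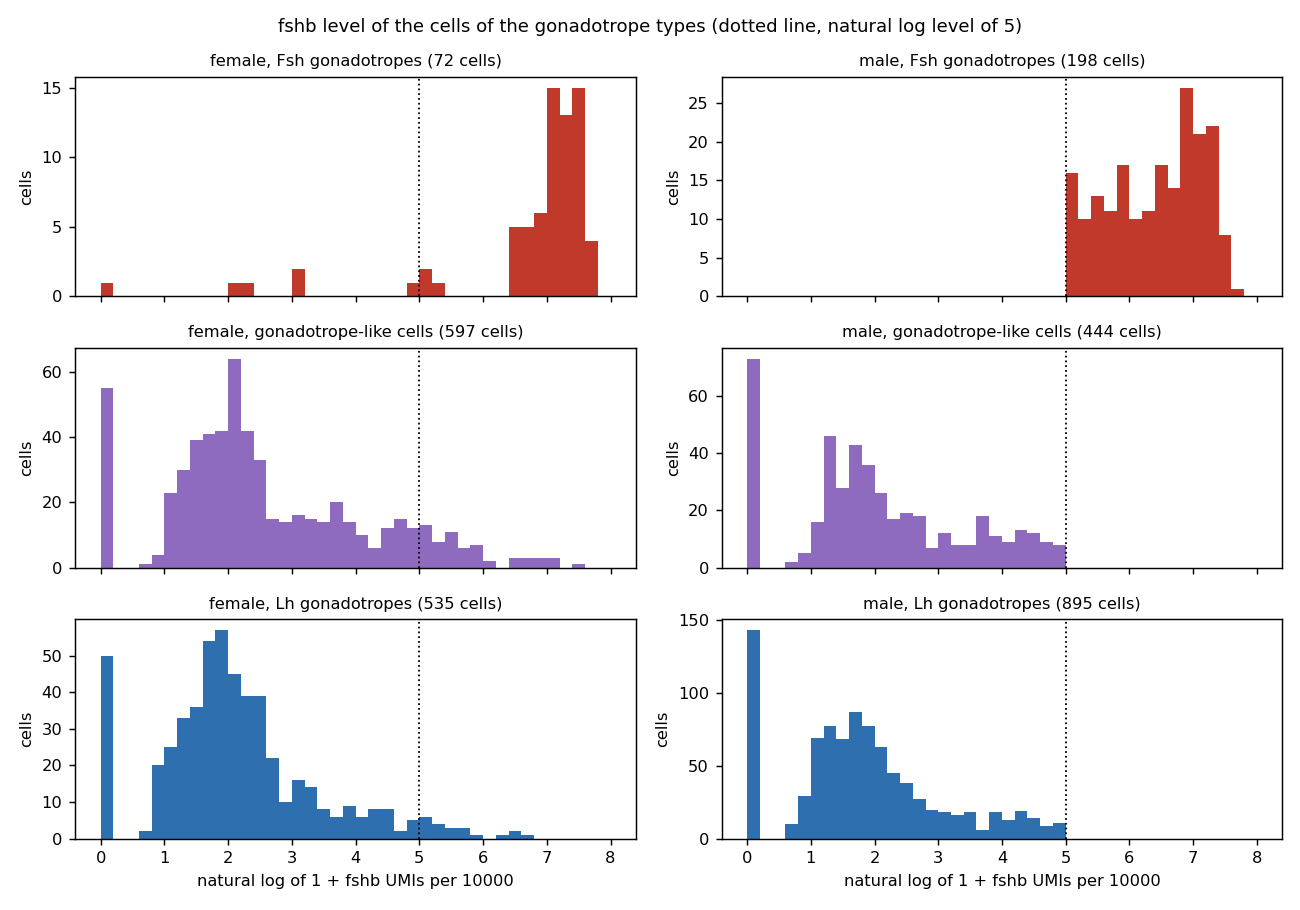
Number of cells by *fshb* level (natural log of 1 plus UMIs per 10000) in Fsh gonadotropes, gonadotrope-like cells and Lh gonadotropes, from top to bottom, of the female (left) and male (right) library. The dotted line marks 5, a value placed at the male border. All 198 male Fsh gonadotropes lie above it and no other male gonadotrope does, while 60 gonadotrope-like and 21 Lh cells of the female library do.

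The position of Fsh gonadotropes on the deposited two-dimensional map also differed between the libraries, but there the female type was the more separate one. Of the 20 nearest neighbours of female Fsh gonadotropes, 90.3% were Fsh gonadotropes and 9.65% gonadotrope-like cells. For male Fsh gonadotropes, 66.4% were of the same type, 18.6% were gonadotrope-like cells and 14.2% were Lh gonadotropes. The 60 female gonadotrope-like cells of high *fshb* had 91.0% neighbours of their own type and 3.75% Fsh gonadotropes, and the 21 female Lh gonadotropes of high *fshb* had 86.9% of their own type and 0% Fsh gonadotropes.

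Counted by level and not by type, the shares of high cells had overlapping intervals. Red blood cells left out, 157 of 2221 female cells (7.07%, 6.04 to 8.22%) and 203 of 3245 male cells (6.26%, 5.45 to 7.14%) were at or above the natural log level of 5. Among the cells of the gonadotrope types, they were 12.2% of 1204 in females and 12.9% of 1537 in males. Fsh gonadotropes made up 44.9% of such gonadotrope cells in females (66 of 147) and 100% in males (198 of 198). As the value 5 was placed at the male border, the male 100% follows from the choice of this level.

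The female over male ratio of the pooled level in Fsh gonadotropes was 1.64 (1.62 to 1.65), and that of the medians was 1.85. This ratio moved with the way the cells were chosen. Among alternatives set after the values had been seen, it was 1.70 for Fsh gonadotropes at or above the natural log level of 5 and 1.25 for all cells at or above it, whatever their type, at 1006 in females and 803 in males. With the level raised to 500 it was 1.20. Fsh gonadotropes were deeper in females (median 6639 UMIs) than in males (median 4565.5 UMIs), and the level was higher in deeper cells, with a Spearman rho of 0.43 over 72 female and 0.32 over 198 male cells of these single libraries. Restricted to Fsh gonadotropes of 4000 to 8000 UMIs, the level was 1350 in females (41 cells) and 982 in males (89 cells), a ratio of 1.37. The female value was the higher one in each of these comparisons.

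The background had a like ratio. In lactotropes the female over male ratio was 1.60 (1.45 to 1.77). The median per cell was higher in females in 12 of the 12 types whose medians were above 0, by 1.07-fold (somatolactotropes) to 1.97-fold (corticotropes). Ratios of pooled levels ran wider, from 0.630 in melanotropes (0.540 to 0.733) to 28.6 in somatotropes (25.4 to 32.2), both of which rest on the single cells given above. By medians the melanotropes had a ratio of 1.45, on the other side of 1. Gonadotrope-like cells had a ratio of 3.48 (3.35 to 3.62) by pooled level and 1.52 by median. Lh gonadotropes had 1.44 (1.39 to 1.49) and 1.33.

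The deposited tables also split UMIs into exonic, intronic and spanning ones. The sources used here do not define the spanning ones. Their name could mean reads over both exon and intron sequence, but this was not tested, and the share is given as a description. Introns gave almost none of the *fshb* UMIs, 72 in females (0.0703%) and 156 in males (0.148%), although introns gave 12.9% and 11.7% of all UMIs. Spanning UMIs were 11.7% of the *fshb* UMIs in females and 7.51% in males, against 9.40% and 6.29% of all UMIs. Spanning UMIs made up 11.9% of *fshb* in female Fsh gonadotropes (7978 of 66900, 11.7 to 12.2%) and 1.69% in female lactotropes (12 of 708, 0.879 to 2.94%). They made up 7.77% in male Fsh gonadotropes (6968 of 89709, 7.59 to 7.94%) and 2.62% in male lactotropes (25 of 956, 1.70 to 3.84%). The intervals of the types did not overlap in either library.

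Within the other gonadotropes, this share varied with the *fshb* level of the cell, more clearly in the female library. Female gonadotrope-like cells with a level below 10 had a spanning share of 5.0% (341 cells, 3.49 to 6.92%). It was 9.11% from 10 to 20, 12.9% from 20 to 50, 15.4% from 50 to 100, 11.7% from 100 to 147, 12.5% from 147 to 500, and 11.8% from 500. Female Lh gonadotropes had 3.92% below 10 (357 cells, 2.69 to 5.48%), 7.48% from 10 to 20, 11.6% from 20 to 50, and between 10.0% and 12.5% in the higher classes. From a level of 20, the intervals of all female classes but 1 included the 11.9% of Fsh gonadotropes. That class is the gonadotrope-like cells from 50 to 100 (13.4 to 17.5%). In males the shares were 4.09% below 10 and between 5.86% and 7.63% above it in gonadotrope-like cells, and 5.03% below 10, 4.20% from 10 to 20 and between 6.70% and 7.66% above that in Lh gonadotropes.

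**Figure D4:**
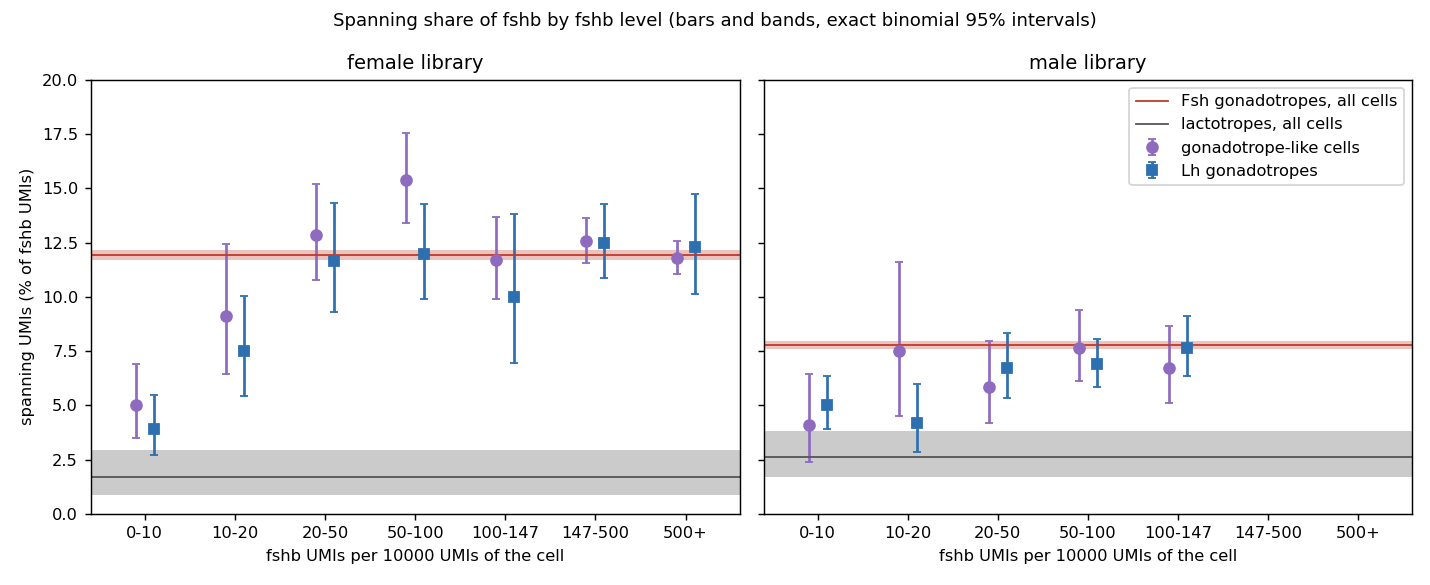
Share of spanning UMIs among *fshb* UMIs, in percent, by the *fshb* level of the cell (classes in UMIs per 10000) in gonadotrope-like cells (circles) and Lh gonadotropes (squares) of the female (left) and male (right) library, with exact binomial 95% intervals. The lines and bands are all Fsh gonadotropes (11.9% and 7.77%) and all lactotropes (1.69% and 2.62%), and the points of the cells below 10 lie between the lines.

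The hormone genes did not all show this. For *lhb*, as for *fshb*, the share was higher in the cells of its own type than in lactotropes. The spanning share of *lhb* was 13.04% in female Lh gonadotropes against 5.25% in female lactotropes, and 7.81% against 2.85% in males. For *gh* it was 29.6% in female somatotropes (29.3 to 29.9%) against 26.3% in female lactotropes (25.1 to 27.6%). In males it was 17.7% (17.5 to 17.8%) against 13.4% (12.6 to 14.2%), so the *gh* intervals did not overlap in either library. For *sl*, the somatolactin gene, it was 6.35% in male somatolactotropes (5.99 to 6.73%) against 2.69% in male lactotropes (1.24 to 5.05%), whereas the intervals overlapped in females (11.3% against 10.2%). For *tshba*, *prl* and *pomca* it was at most 1.07% in each type compared. In female lactotropes the pooled level lay far above the median per cell for *sl* (18.2 against 2.26) and *gh* (30.7 against 4.88). For *gh* in male lactotropes the values were 22.5 and 7.70. These UMIs were thus uneven over lactotropes, and their spanning shares need not be those of background. All of these shares belong to 1 library each, and what sets them was not tested.

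The partners of *fshb* were compared in the same cells. Of 78 symbols in the lists of glycoprotein hormone subunits, gonadotrope receptors and transcription factors, the activin pathway, steroid receptors and the secretory pathway, 4 could be paired with an identifier (*cga*, *lhb*, *tshba* and *nr5a1b*), and the others are not analysed here. The alpha subunit *cga* was at 1069 UMIs per 10000 in female Fsh gonadotropes (1060 to 1078) and 831 in male ones (825 to 836). A cell had a median of 1.28 *fshb* UMIs per *cga* UMI in females (quartiles 0.994 and 1.93) and 1.32 in males (0.735 and 2.07), and *fshb* exceeded *cga* in 53 of 72 female (73.6%) and 126 of 198 male cells (63.6%). Beta and alpha subunit moved together over cells, with a Spearman rho of 0.61 in females and 0.35 in males, where both levels share the same total. In female Lh gonadotropes, by comparison, *cga* was at 1009, with 0.0196 *fshb* UMIs per *cga* UMI, and in male ones at 961, with 0.0143.

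The gene *nr5a1b*, a homologue of steroidogenic factor 1, which takes part in gonadotrope development, was found in all gonadotrope types. It was at 15.1 in female Fsh gonadotropes (14.02 to 16.2), 24.4 in gonadotrope-like cells and 20.4 in Lh gonadotropes, against 0.827 in lactotropes. In males it was at 19.1 (18.3 to 19.9), 21.8, 12.04 and 0.479 in the same order. Among the gonadotrope types it thus was not highest where *fshb* was, although over all types it was number 31 of 5001 genes in likeness to *fshb*. *tshba* was at 6.53 in female Fsh gonadotropes (5.85 to 7.27) and 1.24 in female lactotropes, with medians per cell of 1.33 and 0.646. In males it was at 4.75 in Fsh gonadotropes (4.36 to 5.18) and 3.74 in lactotropes, with a median of 0 in both types.

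The beta subunit of Lh, *lhb*, differed between the Fsh gonadotropes of the libraries more by pooled level than by median. It had a pooled level of 21.5 in female Fsh gonadotropes (20.2 to 22.8) and 11.3 in female lactotropes, and of 168 in male Fsh gonadotropes (165 to 170) and 14.8 in male lactotropes. The medians per cell were 9.31 and 8.34 in females and 17.4 and 14.1 in males, so most Fsh gonadotropes of both libraries had *lhb* near the level of lactotropes. Above an *lhb* level of 100 were 2 of 72 female Fsh gonadotropes (2.78%, 0.338 to 9.68%) and 30 of 198 male ones (15.2%, 10.5 to 20.9%). Their median *fshb* level was 262 in the 30 male cells and 783 in the other 168.

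In males, *lhb* was higher in the cells near the lower border of the type. The 77 male Fsh gonadotropes from 147 to 500 *fshb* UMIs per 10000 had a pooled *lhb* level of 384 (378 to 390), a median of 26.0 and a median depth of 3322 UMIs. The 121 male cells from 500 had 48.7 (47.1 to 50.3), a median of 14.02 and a median depth of 5333 UMIs. GFP, which is driven by the *lhb* promoter in these fish, was at 1269 and 151 in the same classes. Its medians were 230 and 49.2, against 48 in male lactotropes. In the 63 female Fsh gonadotropes from 500, *lhb* was at 21.8 (20.5 to 23.2) and GFP at 109. The GFP median of these cells was 22.7, against 24.4 in female lactotropes. *cga* was at 857 in the male cells from 147 to 500 and at 816 in those from 500, with medians of 400.0 and 697, so that the order of the pooled levels was opposite to that of the medians. It was at 1118 in the female cells from 500, with a median of 979.

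**Figure D5:**
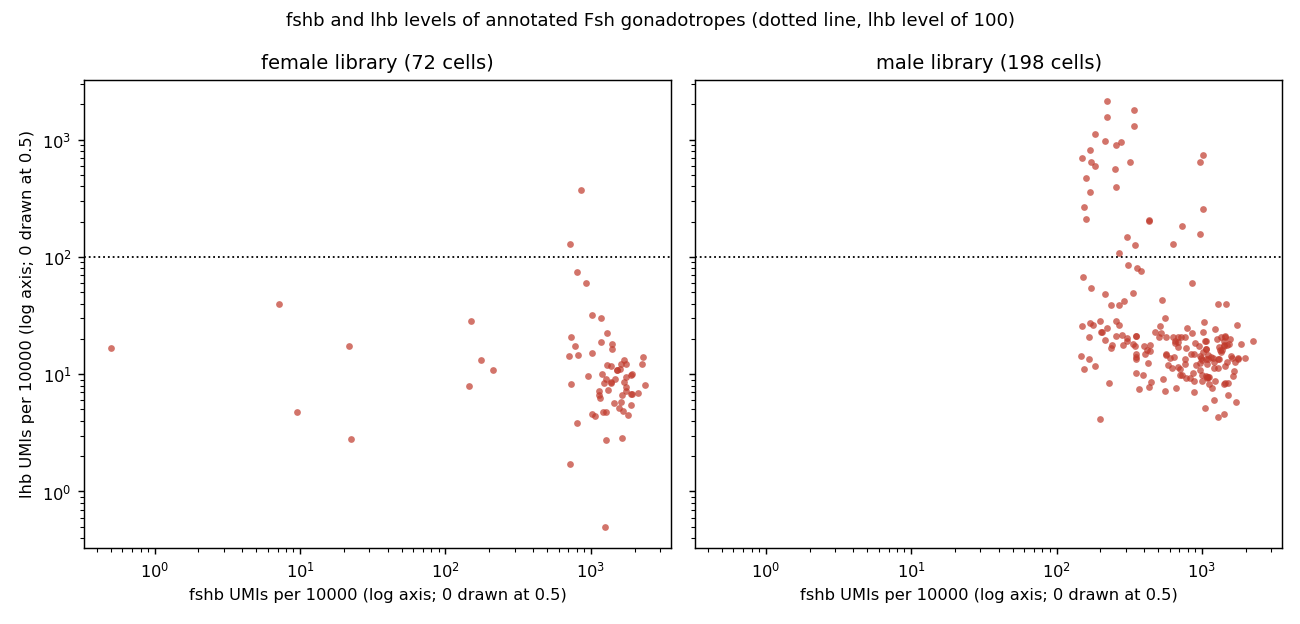
Levels of *fshb* (horizontal) and *lhb* (vertical) in the Fsh gonadotropes of the female (left, 72 cells) and male (right, 198 cells) library, in UMIs per 10000 on log axes, with 0 drawn at 0.5. Above the dotted line at an *lhb* level of 100 lie 2 female and 30 male cells, most of the male ones at *fshb* levels below 500.

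Among female gonadotrope-like and Lh cells, *lhb* was low where *fshb* was high. Female gonadotrope-like cells had a median *lhb* level of 64.8 below 10 *fshb* UMIs per 10000, 16.6 from 20 to 50, 20.5 from 100 to 147 and 8.52 from 500. Female Lh gonadotropes had a median *lhb* level of 165 below 10, 80.9 from 20 to 50, 18.8 from 50 to 100 and 13.1 from 147 to 500. By pooled level, female Lh gonadotropes had no less *lhb* from 20 to 50 than below 10 (429 and 390). The median *lhb* of male gonadotrope-like cells was 63.0 below 10 and 23.3 from 100 to 147. Male Lh gonadotropes differed little between these classes, with a median *lhb* level of 536 below 10 and 513 from 100 to 147. As the level of each gene is a share of the same total, and as *fshb* and *lhb* may have entered the annotation, these values are a description.

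In types outside the gonadotropes, the ratio of *fshb* to *lhb* UMIs allows a comparison with the library as a whole, in which it was 0.640 in females and 0.244 in males. It was 0.413 in female lactotropes, 0.415 in macrophages, 0.481 in red blood cells, 0.336 in melanotropes and 0.333 in corticotropes. The male values were 0.196 in lactotropes, 0.301 in macrophages, 0.272 in red blood cells, 0.0964 in melanotropes and 0.143 in corticotropes. Of the other types, female cga-expressing cells (7.26), somatotropes (6.47), somatolactotropes (0.837) and uncharacterized cells (0.644) had more *fshb* per *lhb* UMI than their library. A single cell, that of the highest level, held 64.1% of the *fshb* UMIs of these cga-expressing cells and 90.4% of those of somatotropes. Such a cell held 29.2% in female somatolactotropes and 45.3% in female uncharacterized cells, and ratios without these cells were not computed. Female thyrotropes (0.105) had fewer *fshb* per *lhb* UMI than their library. In males, uncharacterized cells (0.495), macrophages and red blood cells had more than their library, and the remaining types had fewer. Pooled *lhb* lay far above its median per cell in several types. It was 107 against 11.3 in female thyrotropes, 70.8 against 15.5 in male melanotropes and 44.2 against 13.8 in male corticotropes. The ratios of these types thus need not hold for most of their cells. Over the cells of a type, the spread of *fshb* counts around a constant level was 1.59 times the Poisson variance in female and 1.65 times in male lactotropes, and 150 and 176 times in Fsh gonadotropes.

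Genes with the same pattern over types were sought among 5001 genes with at least 200 UMIs in each library, over 26 points (13 types in 2 libraries) that share libraries and depth. The points are pooled levels, and in female somatotropes and cga-expressing cells 1 cell held 90.4% and 64.1% of the *fshb* UMIs. The closest was ENSORLG00000017966, with a Pearson r of 0.92 over all points, 0.92 in females and 0.95 in males. It is far less abundant than *fshb*, with 3.93 UMIs per 10000 in female Fsh gonadotropes (200 of 285 UMIs) and 2.41 in male ones (268 of 336 UMIs), and at most 0.152 in any other female and 0.167 in any other male type. The other 7 of the 8 closest genes had r between 0.75 and 0.83. Of these, ENSORLG00000027769 was the most abundant, with 21.7 UMIs per 10000 in female and 16.4 in male Fsh gonadotropes, and it was next highest in cga-expressing cells (7.41 and 4.04). The files do not pair these identifiers with gene symbols. For comparison, r was 0.65 for *nr5a1b*, 0.57 for *cga*, 0.17 for *lhb* and 0.15 for *tshba*.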

How the data were processed

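UMI counts for each gene in each cell, not normalized, were deposited by the authors with exon, intron and spanning UMI counts, cell types, clusters and map positions. They had been made with Cell Ranger and Seurat per the submitters' processing notes, with settings and genome build not given in the sources used here. Matrix sums equalled the deposited total count in all 2592 female and 3804 male cells. The signal values (mean per cluster) and adjusted p-values that the authors deposited with their marker genes were not used. In males 1 cell whose type was spelled differently was joined with the Lh gonadotropes.

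Levels, shares, intervals and ratios were computed with Python 3.11.15, numpy 2.4.6, scipy 1.17.1 and pandas 2.3.3, and no test was run, as each sex is 1 library. Depth per cell (138 to 44871 UMIs in females, 138 to 101151 in males) limits single-cell levels. Shares after thinning are hypergeometric expectations. Likeness is Pearson r of log2(UMIs per 10000 + 0.1). The genes named are *fshb*, the hormone genes, *nr5a1b*, GFP and the 8 genes of highest r, of which 2 are printed. The computations for thinning and likeness were tested on simulated data. The gene, lists and alternatives were chosen with earlier results of these data known.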

Additional observations from a re-analysis of the deposited data

Results flagged for a closer look

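The pooled *fshb* level of melanotropes was below that of lactotropes in females and above it in males, but the female levels were not separated, at 0.926-fold (0.794 to 1.08) against 2.36-fold in males (2.13 to 2.60). On a log2 scale, the pooled *fshb* level of melanotropes over lactotropes was -0.11 in females (4.30 against 4.64 UMIs per 10000) and 1.24 in males (6.83 against 2.90). The difference was not tested, as each sex is 1 library. Without the melanotrope of the highest level, the values were -0.12 in females and 0.66 in males, and from the medians per cell they were -0.02 and 0.18.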

How the results depend on the processing

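The order of the types, Fsh gonadotropes above gonadotrope-like cells, Lh gonadotropes and lactotropes, held under each way of computing the level that was tried, while the values moved. As the mean over cells, the *fshb* level was 1217 in female and 768 in male Fsh gonadotropes, 58.1 in female gonadotrope-like cells, and 24.3 in female and 13.2 in male Lh gonadotropes. As the median it was 1276 in female and 689 in male Fsh gonadotropes, 7.99 and 5.27 in gonadotrope-like cells, 6.11 and 4.60 in Lh gonadotropes, and 4.13 and 2.50 in lactotropes. With exon counts over exon totals it was 1429.8 in female and 865 in male Fsh gonadotropes, 67.8 and 19.4 in gonadotrope-like cells, 21.6 and 14.4 in Lh gonadotropes, and 5.50 and 3.26 in lactotropes. Without the deepest cells (total UMIs over the 95th percentile) it was 1293 in female and 854 in male Fsh gonadotropes, 53.8 in female gonadotrope-like cells, and 21.2 in female and 13.15 in male Lh gonadotropes. With the 7 hormone genes left out of the total it was 1540.1 in female and 906 in male Fsh gonadotropes, 63.9 in female gonadotrope-like cells, 20.7 and 14.9 in Lh gonadotropes, and 6.24 and 3.63 in lactotropes. The female over male ratio in Fsh gonadotropes stayed above 1, at 1.58 by means, 1.85 by medians, 1.51 without the deepest cells and 1.70 without the hormone genes. In alternatives chosen after seeing the data, annotated Fsh gonadotropes at or above the natural log level of 5 had 1378 in females (ratio 1.70), all cells at or above it had 1006 in females and 803 in males (ratio 1.25), and the ratio was 1.20 for all cells from 500 and 1.37 for Fsh gonadotropes of 4000 to 8000 UMIs.

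The share of *fshb* UMIs in Fsh gonadotropes was 67.9% in females and 85.5% in males without the deepest cells, 57.6% and 81.7% with every cell scaled to 10000 UMIs, and 68.8% and 88.9% with the lactotrope level subtracted. In males it was 85.1% without red blood cells and 84.7% with exon counts. Among the cells above a cut-off, Fsh gonadotropes were 16.8% in females and 40.1% in males at 25, 35.1% and 79.8% at 100, and 51.6% and 97.3% at 200. Lactotropes with a *fshb* UMI were 60.5% in females and 44.9% in males at 2200 UMIs, and 35.7% and 24.7% at 1000 UMIs. Of the 8 genes most like *fshb*, 5 were kept with a pseudocount of 0.01, 2 with Spearman rank correlation and 2 with a minimum of 50 UMIs. The spanning shares of Fsh gonadotropes and lactotropes stayed within their intervals under the 1 alternative tried for each, also chosen after seeing the data. Among female cells above the cut-off, Fsh gonadotropes were fewer than gonadotrope-like and Lh cells at 50 (67 against 175) and more at 200 (64 against 41 and 12). Without the highest cell, the log2 level over lactotropes was -0.10 in female corticotropes (0.40 with it) and -0.06 in male somatotropes (0.09 with it). The female over male ratio of melanotropes was 0.630 by pooled level and 1.45 by median, and that of corticotropes 0.971 and 1.97. Causes were not tested beyond what each alternative changes by its construction.

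No paired analysis was possible because each sex is 1 library. With no replicates, the intervals cover counting error only, and neither the spread between fish nor that between preparations is known. Levels of shallow cells, red blood cells above all, rest on few UMIs. The annotation used the same counts, and whether the study's expression cut-off entered the cell types is not stated. Free RNA in the droplets was not corrected for here, so levels near those of lactotropes are not read as expression.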
